A study of Mus musculus with 10 samples.

Results

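The 10 genes of an NRF2 type of antioxidant response followed here, in T cells taken from mouse melanomas, were Osgin1, Hmox1, Nqo1, Gclm, Gclc, Txnrd1, Srxn1, Slc7a11, Prdx1 and Sqstm1. They were taken by symbol from the 48825 genes of the table of normalized counts, and all 10 were found. The list was drawn up with earlier results of these libraries known. Osgin1 in particular stands in it with its values in the combined treatment and under the CD40 antibody in view, so its levels and differences in those groups are a description, and no fit of Osgin1 is used as support. All 10 genes passed the filter on low values (2 or more libraries with 10 or more normalized counts), which left 15716 genes for the fit.

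The study asked how 2 drugs aimed at myeloid cells, alone and together, act on melanoma. All mice, controls included, carried BrafCA and Tyr::CreER, in which a recombinase driven in melanocytes switches on mutant Braf, and the labels call the genotype wild type. The group CSF1Ri+CD40 (2 libraries) received PLX6134, an inhibitor of the macrophage growth factor receptor CSF1R, in chow at 600 mg/kg, together with FGK4.5, an agonistic CD40 antibody, at 10 mg/kg every 3 days. The group CD40 (3 libraries) received the antibody alone and the group CSF1Ri (2 libraries) the inhibitor alone. The control group (3 libraries) received normal chow; the labels name PBS as the vehicle of the antibody. Treatment began 30 days after tumor induction, and the ages are not given. Each library came from 3 or more pooled tumors, so the spread between libraries, and any p-value from it, is a spread between pools that may in part be technical. The number of a library is the one in its title, except that the unnumbered CSF1Ri library is called CSF1Ri 1.

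Some properties of the libraries bear on every gene below. The titles name T cells and the tissue label names macrophages. The summed level of 10 T cell markers ran from 92332 to 156565 normalized counts per library. It was 130986 to 138791 in CSF1Ri+CD40, 97964 to 156565 in CD40, 129624 to 142854 in CSF1Ri and 92332 to 116216 in control. Both groups with the inhibitor thus lay above control, and the part of this in the levels of the genes below was not tested. The summed level of 10 macrophage markers ran from 518 to 2595, the highest in CD40 1. Control 1, CD40 2 and CD40 3 held Y-linked transcripts (sums of 2438, 1569 and 3072), and the other 7 libraries held 0 or 1. Hemoglobin and other erythroid transcripts were highest in control 1 and control 2, and mast cell transcripts were highest in CD40 1 at 18136 and CSF1Ri+CD40 1 at 10058. CD40 3 had the most nuclear RNA of Malat1, Neat1 and Xist (96493) and the least mitochondrially encoded RNA (95074). In bulk libraries, fewer cells of a type and less RNA per cell cannot be told apart.

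NRF2, encoded by Nfe2l2, is a transcription factor that is kept low by KEAP1, an adaptor that hands it to a ubiquitin ligase. Oxidants and electrophiles modify KEAP1, and NRF2 then pairs with small Maf proteins on antioxidant response elements and switches on genes for glutathione synthesis, thioredoxin, quinone and haem breakdown. BACH1 and BACH2 occupy the same elements as repressors. In T cells, glutathione and thioredoxin are known to be needed for the growth that follows activation.

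To show what the DNA near these genes looks like, the promoter windows of RefSeq (GRCm38.p6, 250 bases before and 50 after a transcript start) were searched on both strands. Windows were present for 8 of the 10 genes, 10 windows in all. The core of the antioxidant response element, TGACNNNGC with N any base, was in 4 of these 10 windows, of Gclm, Prdx1, Txnrd1 and Srxn1, against 12.4% of the 32851 mouse windows searched. In Srxn1 it lay 28 bases after the start and is not printed. The shorter palindrome TGANTCA, the site of AP-1 and part of the longer element TGACTCAGC, was in 3 windows, of Osgin1, Prdx1 and Srxn1, against 7.81% of all windows. The full TGACTCAGC was in the Prdx1 window alone, against 0.454% of all windows. These matches are letters, not measured binding. The sequences are on the plus strand, the strand of all 5 genes, and capitals mark the match; in the Gclm, Prdx1 and Txnrd1 lines it is TGACNNNGC read on the opposite strand, and in the Osgin1 and Srxn1 lines it is TGANTCA.
Osgin1, chr8:119437024-119437082: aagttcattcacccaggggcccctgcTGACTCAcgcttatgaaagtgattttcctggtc
Srxn1, chr2:152105396-152105454: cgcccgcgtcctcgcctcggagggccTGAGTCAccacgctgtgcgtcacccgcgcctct
Prdx1, chr4:116685440-116685500: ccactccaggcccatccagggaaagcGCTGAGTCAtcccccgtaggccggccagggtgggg
Gclm, chr3:122245397-122245457: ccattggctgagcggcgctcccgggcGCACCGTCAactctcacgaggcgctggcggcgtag
Txnrd1, chr10:82859088-82859148: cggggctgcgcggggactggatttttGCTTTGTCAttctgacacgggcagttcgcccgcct
The Osgin1 match begins 97 bases before the RefSeq start, and the Prdx1 match 133 bases before it. The printed Osgin1 and Txnrd1 stretches lie inside the gene spans given below, near a transcript start within the span. These lines thus do not show the DNA before either gene span. The Osgin1 window held no TGACNNNGC, which says only that these letters are not in it.

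Osgin1 (chromosome 8, 119434124 to 119446256, GRCm38) encodes a growth inhibitor known mainly from human cells, where oxidative stress induces it. It had 323 and 352 normalized counts in the CSF1Ri+CD40 libraries. It had 22 in CD40 1 and was listed at 0 in CD40 2 and CD40 3. It had 86 and 75 in CSF1Ri 1 and 6, and 80, 62 and 72 in the control libraries. Both CSF1Ri+CD40 libraries were thus above every other library and all 3 CD40 libraries below every other library, while CSF1Ri and control overlapped. A count of 0 allows up to 3 counts in a library, so the zeros place Osgin1 low but do not show that it was absent. Genes used by every cell were above 0 throughout, the lowest of 6 checked at 597. At such levels they cannot show whether reads of a gene as low as Osgin1 were missed.

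In group means, Osgin1 stood at 338 ± 20.5 normalized counts in CSF1Ri+CD40 (SD, n = 2), at 7.33 ± 12.7 in CD40 (n = 3), at 80.5 ± 7.78 in CSF1Ri (n = 2) and at 71.3 ± 9.02 in control (n = 3). The mean of CSF1Ri+CD40 was 46-fold that of CD40, or 36.2-fold with each zero counted at 3. It was 4.73-fold that of control and 4.19-fold that of CSF1Ri. The CD40 mean was 0.103 times the control mean. Fitted on log2 of the normalized count plus 1, the difference was 6.89 ± 1.24 (SE) for CSF1Ri+CD40 over CD40, -4.66 ± 1.11 for CD40 over control and 2.23 ± 1.24 for CSF1Ri+CD40 over control. These differences are set in part by the added constant, since with 8 in place of 1 the first was 4.80 and the second -2.67. CD40 2 and CD40 3, which list Osgin1 at 0, are also the CD40 libraries with Y-linked transcripts. The 7 libraries without Y-linked transcripts had 323 and 352 in CSF1Ri+CD40, 75 and 86 in CSF1Ri, and 62 and 72 in control. CSF1Ri and control did not overlap there. That subset leaves 1 CD40 library, at 22, so it is no test of what goes with Y-linked transcripts. With a term for them in the fit, the log2 difference over control was 1.52 for CSF1Ri+CD40 and -0.53 for CSF1Ri. Without the term these were 2.23 and 0.18.

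**Figure D1:**
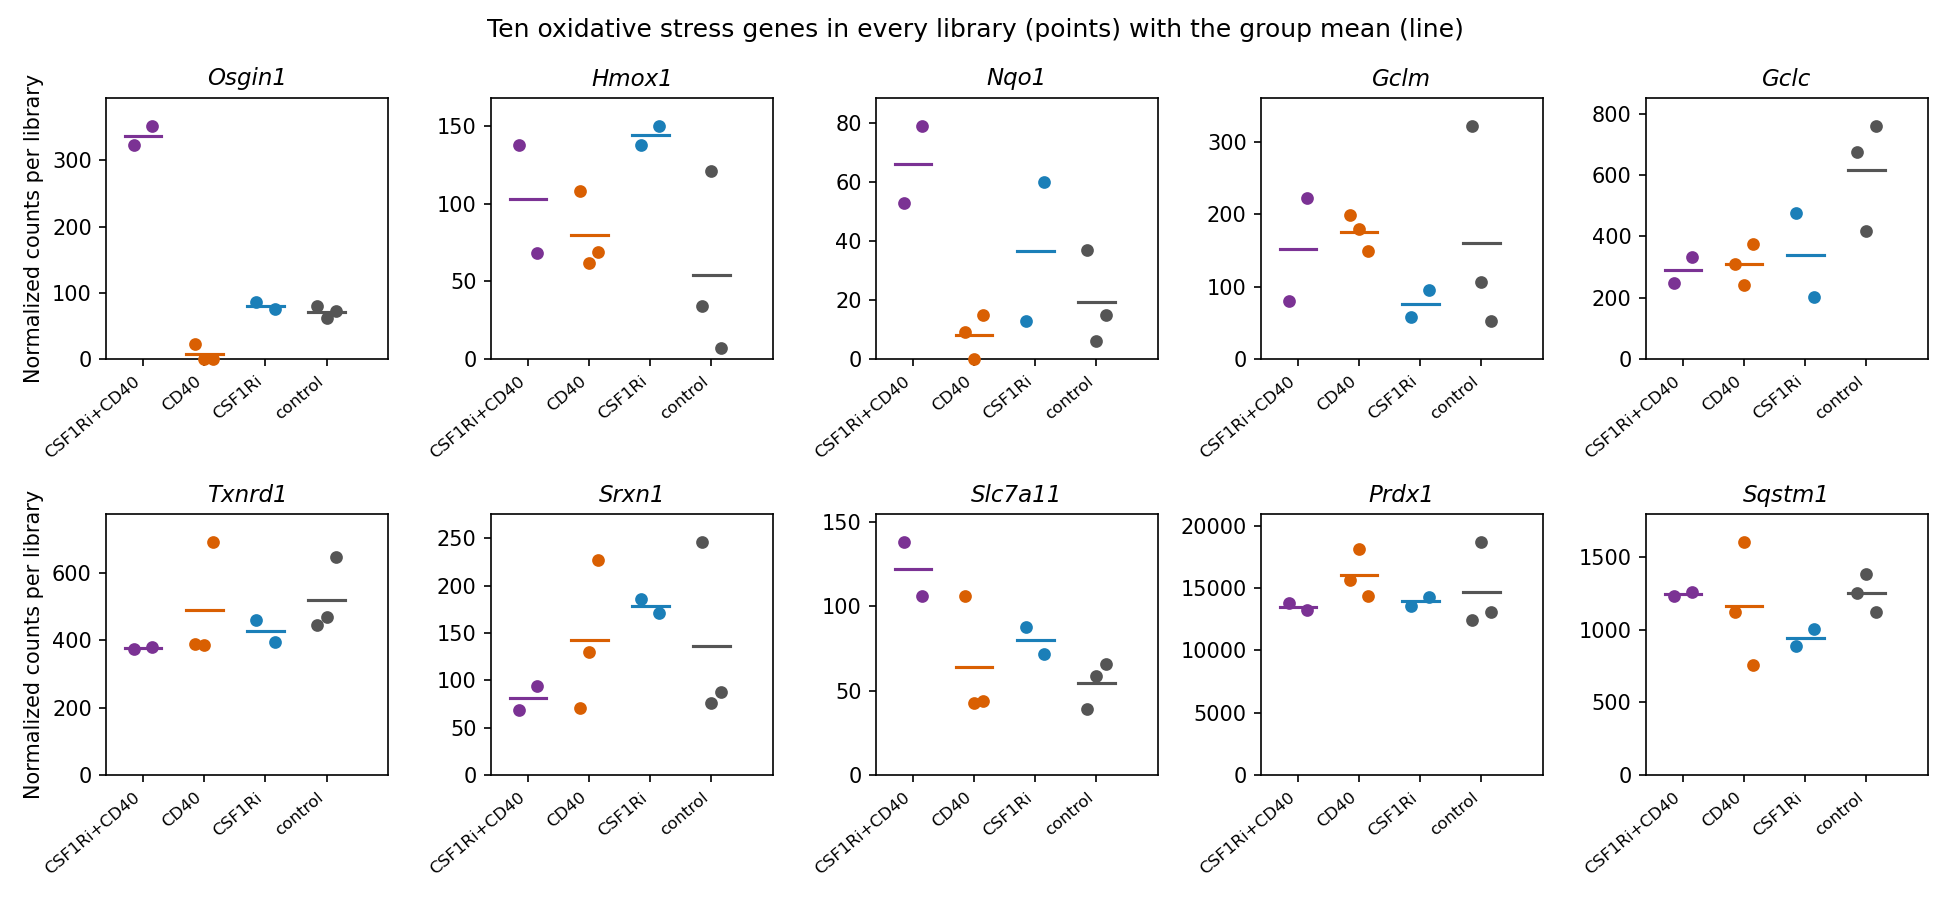
Normalized counts of the 10 genes (vertical axis, from 0) in each library (points) of CSF1Ri+CD40, CD40, CSF1Ri and control (horizontal axis), with the group mean as a line. Osgin1 is at 323 and 352 in CSF1Ri+CD40 and between 0 and 22 in CD40. Single pairs of groups are also apart for other genes, such as Nqo1 and Txnrd1 in CSF1Ri+CD40 against control.

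No other of the 10 genes had both CSF1Ri+CD40 libraries above all 8 others, a pattern held by 363 of the genes tested (2.31%), nor all 3 CD40 libraries below all 7 others, held by 143 (0.91%). Both at once were held by 7 genes (0.0445%). Both patterns are those of Osgin1, which was chosen with these values in view. The shares are therefore no measure of how unusual Osgin1 is. Besides Osgin1 the 7 genes were B3gat2, Gnptab, Mmp14, Mtpn, Sec24d and Spg20, named here after their values were seen. Gnptab, an enzyme that tags hydrolases for the lysosome, had 197 and 119 normalized counts in CSF1Ri+CD40, 46, 12 and 13 in CD40, 66 and 63 in CSF1Ri, and 114, 73 and 95 in control. Mtpn, a small ankyrin repeat protein, had 2657 and 2139 in CSF1Ri+CD40 and 1464, 1162 and 1520 in CD40.

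Across the 10 libraries, Gnptab was the gene most like Osgin1 among 10478 genes with a mean of at least 50. It had Pearson r = 0.97 and Spearman rho = 0.85 on log2 values. Next came Tcaim (r = 0.94, rho = 0.79), RP24-230C18.3 (r = 0.93, rho = 0.78), Cat (r = 0.93, rho = 0.92) and Tmem209 (r = 0.92, rho = 0.86). Tcaim, a mitochondrial protein of T cells, had 313 and 95 normalized counts in CSF1Ri+CD40, 37, 1 and 0 in CD40, 118 and 102 in CSF1Ri, and 60, 16 and 112 in control. Cat is catalase, which breaks down hydrogen peroxide in peroxisomes. It had 1875 and 2310 in CSF1Ri+CD40, 1390, 861 and 1049 in CD40, 2086 and 1949 in CSF1Ri, and 2073, 1521 and 1669 in control. Catalase thus was low in CD40, as Osgin1 was, but its CSF1Ri+CD40 libraries overlapped those of CSF1Ri and control. These likenesses describe 10 points from 4 groups, of which CD40 2 and CD40 3 have Osgin1 at 0. Gnptab was named above from the same values, so its place here adds no support. The most like genes of the others, Hmox1 left out, were Rbmx for Nqo1 (r = 0.93), Psmg1 for Gclm (r = 0.94), Vps52 for Gclc (r = 0.93), Ubfd1 for Txnrd1 (r = 0.95), Gtf2i for Srxn1 (r = 0.91), Scfd1 for Slc7a11 (r = 0.96), Atp5j for Prdx1 (r = 0.94) and Gm16272 for Sqstm1 (r = 0.94).

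Osgin2 encodes a relative of the OSGIN1 protein, and its pattern was another. It had 30 and 16 normalized counts in CSF1Ri+CD40, 156, 26 and 192 in CD40, 128 and 215 in CSF1Ri, and 103, 64 and 91 in control. Both CSF1Ri+CD40 libraries were below the control libraries, where those of Osgin1 were above them. The fitted log2 difference of CSF1Ri+CD40 over control was -1.89 ± 0.85 (SE; adjusted p = 0.914, limma).

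**Figure D2:**
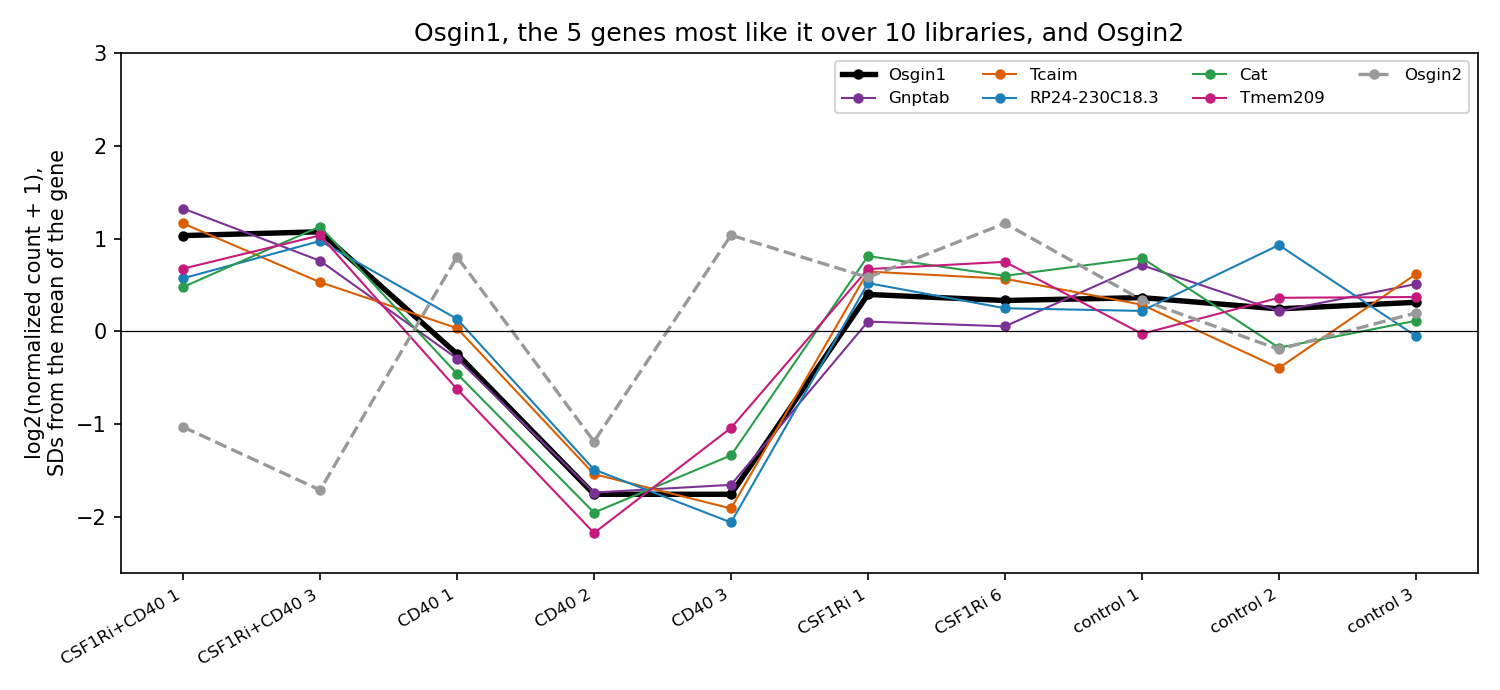
Log2 of the normalized count plus 1, in SDs from the mean of each gene (vertical axis), in the 10 libraries (horizontal axis) for Osgin1, the 5 genes most like it and Osgin2 (dashed); lines join libraries only to guide the eye. Osgin1 and the genes like it are lowest in CD40 2 and CD40 3, where Osgin1 is listed at 0, and Osgin2 is low in both CSF1Ri+CD40 libraries.

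Over all 8 comparisons fitted, 0 of the 10 genes reached an adjusted p below 0.05 (limma, Benjamini-Hochberg, all genes of a comparison). The same threshold was passed by 0.00636% of all genes for CSF1Ri over control, 0.00636% for CD40 over control and 0% for CSF1Ri+CD40 over control, over CD40 and over CSF1Ri, for the interaction and for both averaged effects. At an unadjusted p under 0.05 these 3 comparisons with control held 641, 1005 and 849 genes, and those of CSF1Ri+CD40 over CD40 and over CSF1Ri 780 and 563. Without any true difference, a share of 0.05 of the 15716 genes would be expected at this cut, so no change is read from these counts. The adjusted p of the 9 genes other than Osgin1 ran from 0.768 to 1 over the 8 comparisons. In the fit without CD40 1, which leaves 2 CD40 libraries that both list Osgin1 at 0, Osgin1 went past the threshold for CSF1Ri+CD40 over CD40 (log2 difference 8.40) and for CD40 over control (-6.17). As Osgin1 was chosen with these values in view, this is no test of it.

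Nqo1 (chromosome 8, 107388225 to 107403206) encodes a quinone reductase and is the textbook target of NRF2. Its mean normalized count was the lowest of the 10 genes, although per kilobase of exon Slc7a11 was lower (5.47, against 18.5 for Nqo1). It had 53 and 79 normalized counts in CSF1Ri+CD40, 9, 0 and 15 in CD40, 13 and 60 in CSF1Ri, and 37, 6 and 15 in control. The CSF1Ri+CD40 libraries were above those of CD40 and of control and overlapped those of CSF1Ri. The mean was 66 ± 18.4 in CSF1Ri+CD40 (SD, n = 2) against 8 ± 7.55 in CD40 (n = 3), a fitted log2 difference of 3.60 ± 1.38 (SE; adjusted p = 0.966, limma). Of the other 9 genes Nqo1 was most like Osgin1 over the libraries (r = 0.73, rho = 0.72).

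Slc7a11 (chromosome 3, 49892526 to 50443614) encodes the cystine and glutamate exchanger that feeds glutathione synthesis. It had 138 and 106 normalized counts in CSF1Ri+CD40, 106, 43 and 44 in CD40, 88 and 72 in CSF1Ri, and 39, 59 and 66 in control. The libraries of CSF1Ri+CD40 and of CSF1Ri were all above those of control. The fitted log2 difference was 1.17 ± 0.66 for CSF1Ri+CD40 over control and 0.57 ± 0.66 for CSF1Ri over control (SE; adjusted p = 0.925 and 1, limma). With a term for Y-linked transcripts these differences were 0.84 and 0.25.

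Gclc (chromosome 9, 77754535 to 77794485) and Gclm (chromosome 3, 122245557 to 122270732) encode the catalytic and the modifier subunit of the enzyme that makes the first step of glutathione synthesis. Gclc had 246 and 332 normalized counts in CSF1Ri+CD40, 310, 241 and 376 in CD40, 477 and 202 in CSF1Ri, and 675, 418 and 760 in control. All libraries with the antibody, with or without the inhibitor, were below all control libraries, and CSF1Ri 1 overlapped control. The mean was 289 ± 60.8 in CSF1Ri+CD40, 309 ± 67.5 in CD40, 340 ± 195 in CSF1Ri and 618 ± 178 in control. The fitted log2 difference over control was -1.06 ± 0.44, -0.98 ± 0.39 and -0.94 ± 0.44 (SE; adjusted p = 0.914, 0.768 and 1, limma), and these comparisons share the control libraries. Without CSF1Ri 6 the last was -0.33, and without CSF1Ri 1 it was -1.56.

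Gclm did not follow its partner. It had 80 and 223 normalized counts in CSF1Ri+CD40, 199, 179 and 149 in CD40, 58 and 95 in CSF1Ri, and 322, 106 and 53 in control. The control libraries alone spanned the range of all others. The ratio of Gclc to Gclm was 3.08 and 1.49 in CSF1Ri+CD40, 1.56, 1.35 and 2.52 in CD40, 8.22 and 2.13 in CSF1Ri, and 2.1, 3.94 and 14.3 in control. Exons of Gclm overlap those of Gm17494 on the other strand over 296 bases and of Gm6061 over 244 bases. Gm17494 reached 59 normalized counts, as many as Gclm in its lowest libraries, and Gm6061 reached 12. The kit kept no strand information, so reads from the shared bases cannot be told apart, and their part in the Gclm level was not tested.

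Hmox1 (chromosome 8, 75093621 to 75100589) encodes heme oxygenase, which breaks haem down to biliverdin, iron and carbon monoxide and is abundant in macrophages. It had 138 and 68 normalized counts in CSF1Ri+CD40, 108, 62 and 69 in CD40, 138 and 150 in CSF1Ri, and 34, 121 and 7 in control. Both CSF1Ri libraries were above all control libraries, a mean of 144 ± 8.49 against 54 ± 59.6, and the other groups overlapped control. The fitted log2 difference of CSF1Ri over control was 2.16 ± 0.98 (SE; adjusted p = 1, limma), and it ran from 1.15 without control 3 to 3.11 without control 2. The 10 macrophage markers summed to 518 and 866 in CSF1Ri and to 862, 1182 and 1000 in control, and the erythroid markers to 1318 and 2729 in CSF1Ri and to 13071, 15906 and 2940 in control. The erythroid sums did not overlap, and the macrophage sums did. Of the 10 macrophage markers 0 were at 0 in all libraries. Csf1r, the target of the inhibitor, was at 99 and 133 in CSF1Ri and 110, 120 and 106 in control, and Mrc1, the mannose receptor, was at 0 in 5 libraries. Lyz2, another macrophage marker, was at 144 and 182 in CSF1Ri, below the 221, 680 and 637 of control. Cd68, a further one, was at 159 and 292 in CSF1Ri and overlapped the 242, 123 and 79 of control. The part of macrophages and erythroid cells in the Hmox1 level was not tested.

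Txnrd1 (chromosome 10, 82833951 to 82897712) and Srxn1 (chromosome 2, 152105516 to 152111376) serve the thioredoxin system, Txnrd1 by reducing thioredoxin and Srxn1 by repairing overoxidized peroxiredoxins. Txnrd1 had 373 and 379 normalized counts in CSF1Ri+CD40, 389, 386 and 690 in CD40, 459 and 393 in CSF1Ri, and 444, 467 and 645 in control. The CSF1Ri+CD40 libraries were the lowest, at a mean of 376 ± 4.24 against 519 ± 110 in control. Srxn1 had 69 and 94 in CSF1Ri+CD40, 71, 130 and 227 in CD40, 186 and 171 in CSF1Ri, and 246, 76 and 88 in control. The CSF1Ri+CD40 libraries were below those of CSF1Ri and overlapped those of CD40 and control. The fitted log2 difference of Srxn1 for CSF1Ri+CD40 over CD40 was -0.66, and 0.28 with a term for Y-linked transcripts.

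Prdx1 (chromosome 4, 116685544 to 116700822), a peroxidase that uses thioredoxin, was by far the most abundant of the 10 genes. Per kilobase of exon it averaged 4835 normalized counts over the 10 libraries, against 346 for Sqstm1, 107 for Gclc, 65.3 for Txnrd1 and 5.47 for Slc7a11. It had 13779 and 13243 in CSF1Ri+CD40, 15641, 18108 and 14326 in CD40, 13589 and 14290 in CSF1Ri, and 12435, 18671 and 13043 in control. It was the steadiest of the 10 genes, and its whole range, 1.5-fold, lay within the control group. The CSF1Ri+CD40 libraries were below those of CD40. Sqstm1 (chromosome 11, 50199366 to 50210827) encodes p62, an autophagy receptor that also binds KEAP1. It had 1229 and 1261 in CSF1Ri+CD40, 1124, 1602 and 759 in CD40, 886 and 1004 in CSF1Ri, and 1255, 1384 and 1119 in control. The CSF1Ri libraries were below the control libraries, a log2 difference of -0.40 ± 0.30 (SE; adjusted p = 1, limma), and the CD40 libraries spanned all others. Exons of Sqstm1 overlap those of Mrnip on the other strand over 580 bases, and reads from there cannot be told apart.

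**Figure D3:**
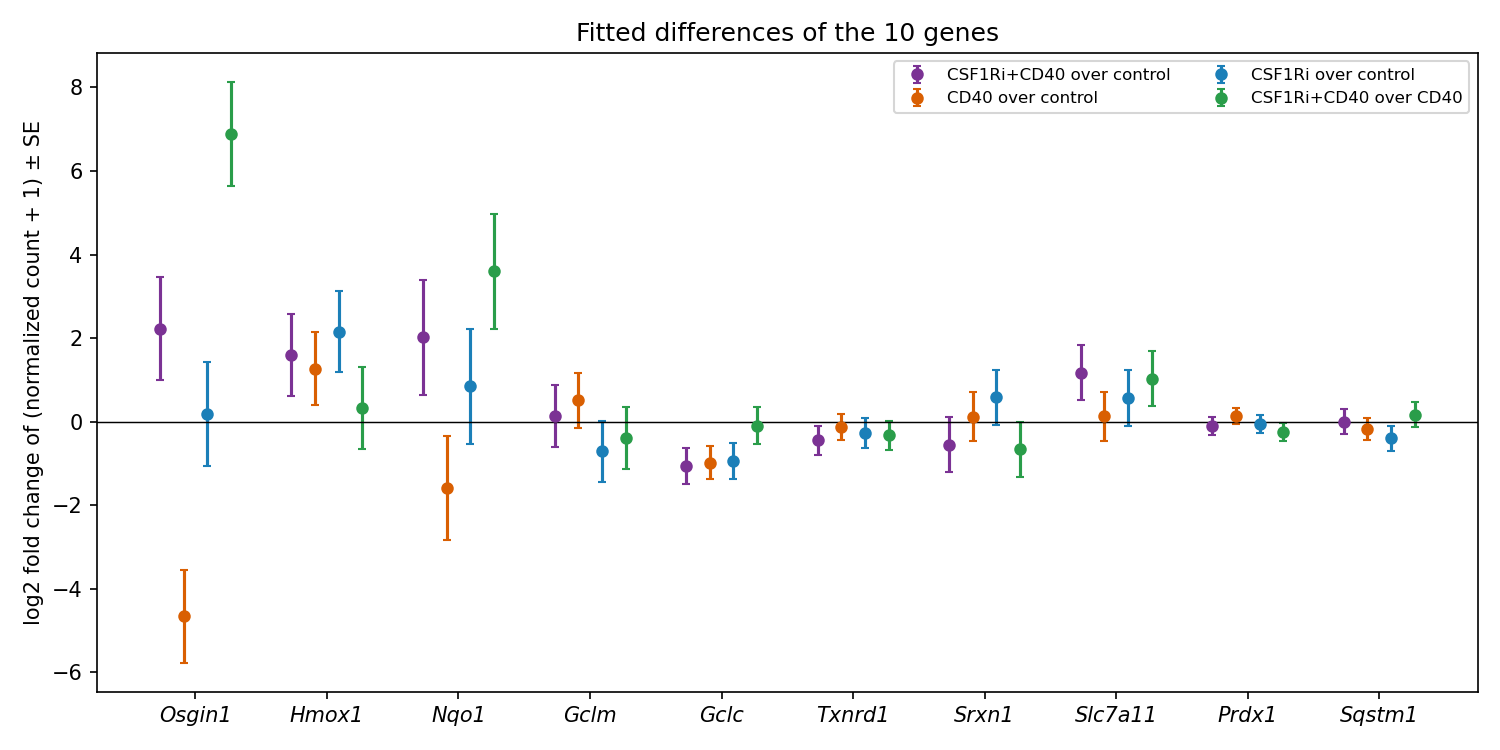
Fitted log2 fold changes of the normalized count plus 1, with the SE as bars (vertical axis), for the 10 genes (horizontal axis) in 4 comparisons shown by color. Osgin1 reaches 6.89 for CSF1Ri+CD40 over CD40 and -4.66 for CD40 over control, while Prdx1 runs from -0.24 to 0.14 over the 4 comparisons and Sqstm1 from -0.40 to 0.17.

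As a set, the 10 genes went both ways in each treatment. Over control, 5 were higher and 5 lower with CSF1Ri+CD40, with CD40 and with CSF1Ri, and the median log2 differences were 0.06, -0.00 and 0.06, against -0.00, -0.01 and 0.02 over all genes tested. Both CSF1Ri+CD40 libraries were above all control libraries for 3 genes (Osgin1, Nqo1 and Slc7a11), against 10.6% of all genes, and below them for 2 (Gclc and Txnrd1), against 9.6%. With CD40, 0 genes were above control without overlap, against 4.19% of all genes, and 2 were below it (Osgin1 and Gclc), against 4.91%. With CSF1Ri, 2 were above it (Hmox1 and Slc7a11), against 11.6%, and 1 below it (Sqstm1), against 10.3%. For CSF1Ri+CD40 over CD40, 2 were above (Osgin1 and Nqo1), against 8.19%, and 2 below (Txnrd1 and Prdx1), against 6.84%. For CSF1Ri+CD40 over CSF1Ri, 3 were above (Osgin1, Slc7a11 and Sqstm1), against 16.5%, and 2 below (Txnrd1 and Srxn1), against 16.8%. For the CSF1Ri effect averaged over the antibody, 0 were above, against 0.592%, and 0 below, against 0.318%. For the CD40 effect averaged over the inhibitor, 0 were above, against 0.35%, and 0 below, against 0.433%. Because Osgin1 was chosen on these groups, nothing is read from counts that hold it. Over the 45 pairs of the 10 genes, r across the libraries was above 0 for 19 and below 0 for 26, with a median of -0.09, a lowest value of -0.76 (Nqo1 with Prdx1) and a highest of 0.73 (Osgin1 with Nqo1).

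Of 10 NRF2 regulators tested, 6 were higher and 4 lower than in control with CSF1Ri+CD40, 7 higher and 3 lower with CD40, and 4 higher and 6 lower with CSF1Ri. Nfe2l2 had 936 and 565 normalized counts in CSF1Ri+CD40, 1256, 398 and 1133 in CD40, 1068 and 877 in CSF1Ri, and 476, 948 and 622 in control, and all groups overlapped control. Keap1 had 285 and 228 in CSF1Ri+CD40, 376, 615 and 298 in CD40, 310 and 343 in CSF1Ri, and 220, 303 and 343 in control. The CSF1Ri+CD40 libraries of Keap1 were below those of CD40. Bach1 had 13 and 62 in CSF1Ri+CD40, 122, 129 and 43 in CD40, 145 and 32 in CSF1Ri, and 125, 106 and 113 in control. Both CSF1Ri+CD40 libraries of Bach1 were below the control libraries, a log2 difference of -1.96 ± 0.88 (SE; adjusted p = 0.914, limma). Bach2, a repressor that lymphocytes use, was at 274 in CD40 3 and between 0 and 32 in the other 9 libraries.

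Beyond the 10 genes, 105 genes in 11 lists around the response were looked up, of which 100 were tested and 0 passed the threshold in any of the 8 comparisons. The lists cover NRF2 regulators, glutathione, thioredoxin and peroxiredoxin, NADPH supply, haem and iron, and detoxification. They also cover removal of superoxide and peroxide, NADPH oxidase, ATF4 and its targets, selective autophagy and Osgin2. Of all genes tested, 49.3% were higher than in control with CSF1Ri+CD40, 49% with CD40 and 51.1% with CSF1Ri. Of 15 glutathione genes, 8 were higher and 7 lower with CSF1Ri+CD40 than in control, and 6 were higher and 9 lower with CD40. Gpx1, the main cytosolic glutathione peroxidase, had 7593 and 6669 normalized counts in CSF1Ri+CD40 and 6826 and 7080 in CSF1Ri, all below the 11660, 12453 and 7898 of control. Gstm1, a glutathione transferase, had 211, 245 and 184 in CD40, all above the 20, 84 and 106 of control, a log2 difference of 1.89 ± 0.70 (SE; adjusted p = 0.743, limma).

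Mgst1, a membrane-bound glutathione transferase, had 13 and 2 in CSF1Ri against 37, 804 and 86 in control, and Gsto1, another transferase, had 356 and 369 against 553, 672 and 481. Glrx, a glutaredoxin, had 6492 and 5577 in CSF1Ri+CD40 against 4288, 5516 and 4004 in control. For these genes the groups named did not overlap.

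Of 13 thioredoxin and peroxiredoxin genes, 8 were higher and 5 lower than in control with CSF1Ri+CD40, 9 higher and 4 lower with CD40, and 8 higher and 5 lower with CSF1Ri. Txnrd2, the mitochondrial thioredoxin reductase, had 111 and 74 in CSF1Ri+CD40, 327, 244 and 198 in CD40 and 274 and 224 in CSF1Ri, against 150, 72 and 193 in control. The CD40 and CSF1Ri libraries were above all control libraries, and those of CSF1Ri+CD40 were not. Sesn1, a sestrin induced by p53, had 366 and 389 in CSF1Ri+CD40, 618, 250 and 1270 in CD40 and 343 and 548 in CSF1Ri, against 1040, 645 and 720 in control, with only the CD40 libraries overlapping control. Txn1, thioredoxin itself, had 5583 and 5448 in CSF1Ri+CD40 against 3619, 4731 and 4533 in control, and Txnip, its inhibitor, had 5269 and 5355 in CSF1Ri against 3308, 4438 and 4991 in control.

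Of 7 NADPH supply genes, 4 were higher and 3 lower than in control with CSF1Ri+CD40, 5 higher and 2 lower with CD40, and 4 higher and 3 lower with CSF1Ri. G6pdx, the first enzyme of the pentose phosphate pathway, had 919 and 841 in CSF1Ri+CD40 and 796 and 954 in CSF1Ri, all above the 598, 577 and 795 of control. Tkt, transketolase, had 2485 and 2133 in CSF1Ri against 1684, 1619 and 2042 in control, and Pgls, the next enzyme after G6pdx, had 1118, 1300 and 1225 in CD40 against 927, 1098 and 439 in control. Of 9 detoxification genes tested, 4 were higher and 5 lower than in control with CSF1Ri+CD40, and 5 higher and 4 lower with CD40 and with CSF1Ri. Ephx1, an epoxide hydrolase, had 649, 546 and 599 in CD40, all above the 415, 391 and 356 of control. Of the 4 genes that remove superoxide and peroxide, 2 were higher and 2 lower with each treatment, and Sod2, the mitochondrial superoxide dismutase, had 1187 and 1303 in CSF1Ri+CD40 and 1204 and 1283 in CSF1Ri, all below the 1498, 1782 and 1412 of control.

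NADPH oxidase genes encode the complex that makes superoxide. Of 6 such genes, 5 were higher and 1 lower than in control with each of CSF1Ri+CD40, CD40 and CSF1Ri. Of all genes tested, 49.3%, 49% and 51.1% were higher. With CSF1Ri+CD40, 4 of the 6 lay above all control libraries, against 10.6% of all genes, and 1 below them, against 9.6%. The 6 genes are compared with the same 3 control libraries, so no result on the list is read from these counts. Ncf4 had 3352 and 2945 normalized counts in CSF1Ri+CD40, 2646, 4126 and 3136 in CD40 and 2470 and 2637 in CSF1Ri, against 2047, 2156 and 1986 in control, so that every treated library was above every control library. Its log2 difference was 0.61 ± 0.22, 0.66 ± 0.20 and 0.31 ± 0.22 (SE; adjusted p = 0.875, 0.691 and 1, limma), and the 3 comparisons share the control libraries. Cybb, the catalytic subunit of phagocytes, was at 89 and 107 in CSF1Ri+CD40 against 33, 11 and 73 in control and Ncf1, a regulatory subunit, was at 109 and 81 against 10, 37 and 71. The macrophage markers summed to 532 and 884 in CSF1Ri+CD40 and 862, 1182 and 1000 in control, but single markers went both ways. Cd68 was at 266 and 419, above the 242, 123 and 79 of control. Csf1r was at 30 and 41, below the 110, 120 and 106 of control. The part of macrophages in these levels was not tested.

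Targets of ATF4 mark stress from lack of amino acids or misfolded proteins, and Slc7a11 also belongs to them. Of 13 genes tested in the list of ATF4 and its targets, 7 were higher and 6 lower than in control with CSF1Ri+CD40. With CD40, 5 were higher and 8 lower, and with CSF1Ri, 7 higher and 6 lower. The 13 genes include Atf4. Ddit3, the stress factor CHOP, had 463 and 400 normalized counts in CSF1Ri+CD40, 401, 227 and 409 in CD40, 354 and 491 in CSF1Ri, and 88, 133 and 283 in control. Both groups with the inhibitor were above all control libraries, and CD40 overlapped control through CD40 2. Its log2 difference was 1.52 ± 0.50 for CSF1Ri+CD40 and 1.48 ± 0.50 for CSF1Ri over control (SE; adjusted p = 0.809 and 1, limma). Atf4 itself had 1805 and 1324 in CSF1Ri+CD40, 1554, 1522 and 797 in CD40, 1826 and 1456 in CSF1Ri, and 1698, 1733 and 1486 in control. Asns, asparagine synthetase, was at 594 and 477 in CSF1Ri+CD40, below the 791, 1034 and 832 of control, and Aldh18a1, an enzyme of proline synthesis, was at 243 and 310, below the 511, 474 and 402 of control. Nupr1, a stress-induced nuclear protein, was at 69 and 52 in CSF1Ri, below the 118, 101 and 71 of control.

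Of 14 selective autophagy genes, to which Sqstm1 is related, 7 were higher and 7 lower than in control with CSF1Ri+CD40, 4 higher and 10 lower with CD40, and 7 higher and 7 lower with CSF1Ri. Map1lc3a, a protein of the autophagosome membrane, had 41 and 46 in CSF1Ri against 52, 62 and 142 in control. Of 8 haem and iron genes tested, 6 were higher and 2 lower in each. Fth1, the ferritin heavy chain, had 35751 and 31235 normalized counts in CSF1Ri+CD40, 38668, 53739 and 22048 in CD40 and 31907 and 33277 in CSF1Ri, against 28150, 28175 and 24889 in control, and only the CD40 libraries overlapped control.

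**Figure D4:**
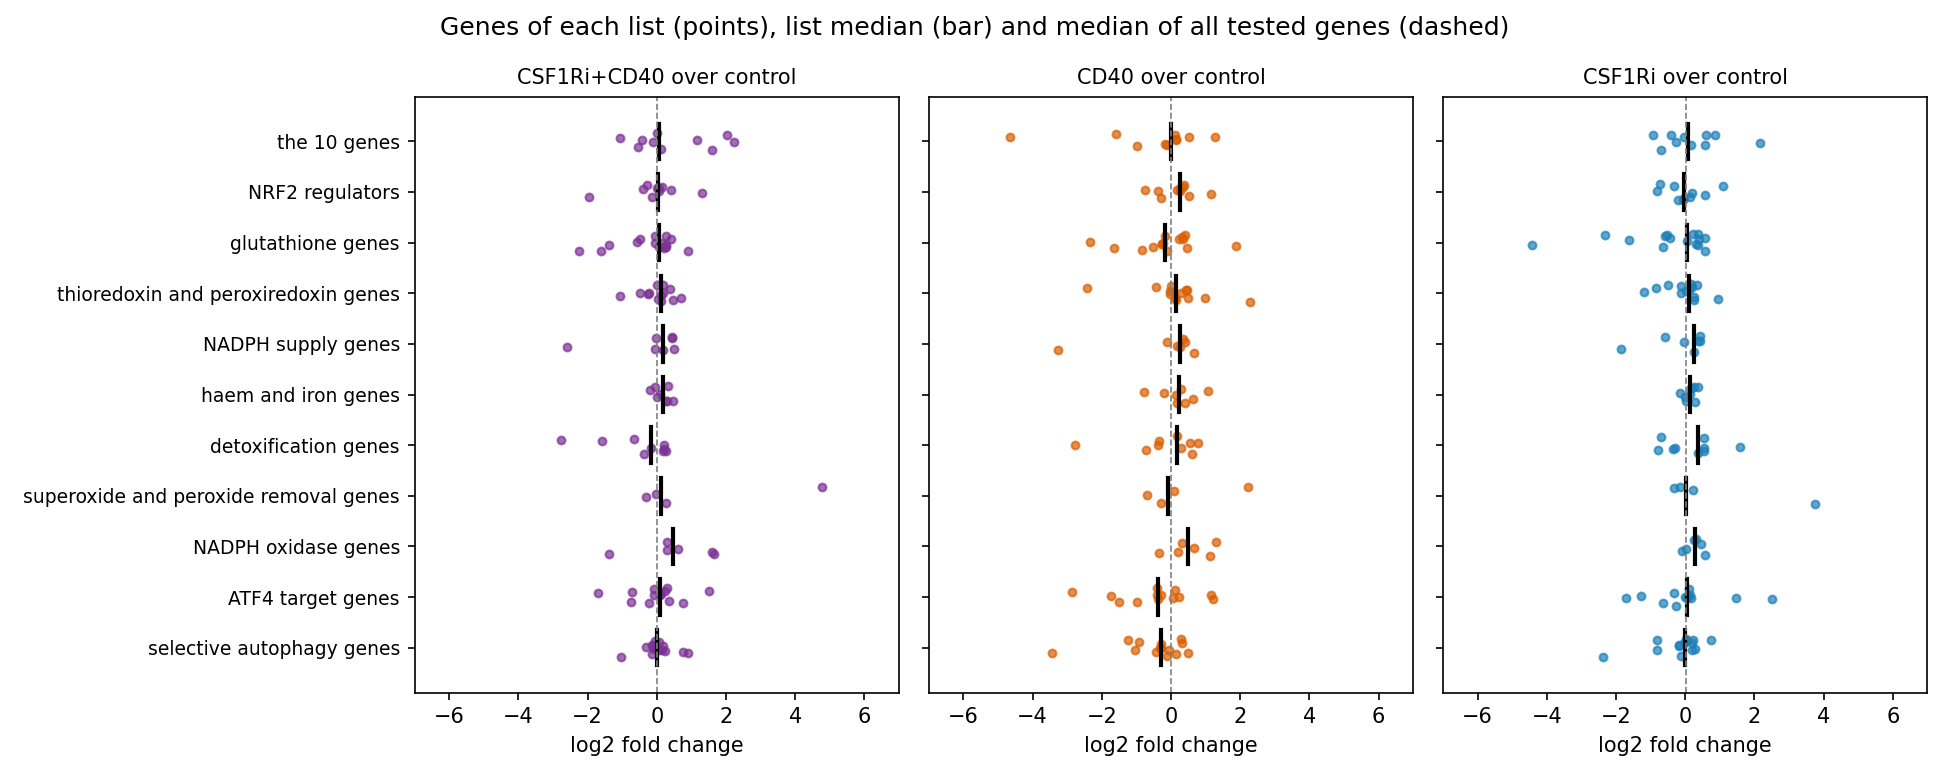
Log2 fold changes over control (horizontal axis) of the tested genes (points) of each list (vertical axis), with the list median as a bar and the median of all tested genes dashed. The 10 genes lie on both sides of 0 in each panel, with list medians of 0.06, -0.00 and 0.06.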

How the data were processed

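RNA of T cells from mouse melanomas was sequenced in 10 libraries of 4 groups. Per the labels' protocols, non-stranded libraries were made from 50 ng of RNA and read as 75-base pairs, and STAR (to GRCm38), HTSeq and DESeq2 were used. Their versions and the annotation are not given in the sources used here. The deposited values are scores: whole numbers that the authors call normalized, called normalized counts here. How they were scaled is not stated. They summed to 11538244 to 14024851 per library. Depth, estimated from which whole numbers are missing among low values, ran from 10.3 to 15 M reads in 8 libraries and could not be settled in 2. Whole reads were not recovered, so no count model was run. Between any 2 libraries, at most 0.369% of values of 100 or more were identical.

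After the filter (10 or more in 2 or more libraries), log2 of the value plus 1 was fitted with limma-trend (limma 3.58.1, R 4.3.3; 6 residual and 5.48 prior degrees of freedom). The 8 comparisons set CSF1Ri+CD40, CD40 and CSF1Ri against control, set CSF1Ri+CD40 against the single agents, and took the interaction and the averaged effect of each agent. Tests were two-sided, with Benjamini-Hochberg adjustment over all genes at 0.05, and the fit was tested on simulated data. Same-number libraries departed from their group means with correlations of -0.266 to 0.18. Libraries of different number were not compared, and departures within groups of 2 or 3 are not free to vary. The correlations therefore cannot settle whether the numbers are pairs. The main fit did not take them as pairs. Alternatives were a constant of 8, no filter, equal totals, leaving out each library, a replicate block and a term for Y-linked transcripts. The 10 genes and the lists were chosen with earlier results of these data known. From each list and comparison with control, the text names up to 3 genes by size of log2 difference, among those whose mean reached 50 and whose groups were separate, plus fixed regulators and the genes most like each of the 10; a few items are not reported here. Positions and exon lengths are from GENCODE vM21. Descriptive values were made in Python 3.11.15 with pandas 2.3.3, numpy 2.4.6 and scipy 1.17.1, and plots with matplotlib 3.10.9.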

Additional observations from a re-analysis of the deposited data

Results flagged for a closer look

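Osgin1 went opposite ways under the CD40 antibody at the 2 levels of the inhibitor. With the inhibitor present, both CSF1Ri+CD40 libraries were above both CSF1Ri libraries, a log2 difference of 2.06. Without it, all 3 CD40 libraries were below all 3 control libraries, a log2 difference of -4.66. The fitted difference between these effects was 6.72 ± 1.75 (SE) on the log2 scale and did not pass the threshold (adjusted p = 0.991, limma). Osgin1 was chosen with these values in view, so this fit supports nothing.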

How the results depend on the processing

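The fitted log2 differences of the 10 genes were recomputed under each alternative, which gave 1150 values; the replicate block could be fitted only for the 3 comparisons without CSF1Ri. Of these values, 1100 kept their direction, 50 did not, and 1139 moved by less than 1 residual SD. Many of them could not move. Leaving out a library of a group outside a comparison leaves the fitted difference as it was, and so does dropping the filter. These counts are therefore no measure of how robust the differences are. Counts of genes past the threshold are small and moved with single libraries. Leaving out 1 library at a time, they ran from 0 to 0 for CSF1Ri over control, 0 to 3 for CD40 over control, 0 to 36 for CSF1Ri+CD40 over control, 0 to 20 for CSF1Ri+CD40 over CD40, 0 to 6 for CSF1Ri+CD40 over CSF1Ri, 0 to 2 for the interaction, 0 to 1 for the CSF1Ri effect averaged and 0 to 3 for the CD40 effect averaged. The highest counts of CSF1Ri+CD40 came without CSF1Ri+CD40 1, which leaves 1 library assumed to vary like the others. With a constant of 8 the counts were 0 for CSF1Ri over control and 1 for CSF1Ri+CD40 over control. With no filter they were 0 for CSF1Ri over control and 0 for CD40 over control, and with the term for Y-linked transcripts 0 for CSF1Ri over control; the cause was not tested. With the replicate block the count was 0 for CD40 over control, for CSF1Ri+CD40 over control and for CSF1Ri+CD40 over CD40. Of the 10 genes and the lists around them, Osgin1 alone passed in any alternative, in the fit without CD40 1, where the remaining CD40 libraries both list it at 0. With 2 or 3 pools per group and genes at under 100 counts, such as Nqo1, differences of this size are poorly resolved.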
